A study of Mus musculus with 8 samples.

Results

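The imprinted growth genes described here were 9 genes chosen by name: H19, Igf2, Dlk1, Meg3, Peg3, Grb10, Cdkn1c, Plagl1 and Mest. They were 9 of the 55418 genes listed for each library, 7 of them found by the symbol in the files and 2 (H19 and Meg3) by their Ensembl gene ID. Total RNA of mouse skin was sequenced in 8 libraries, 1 library for each of 2 genotypes at each of 4 ages. The genotypes were wildtype and hairloss, the latter being mice with a spontaneous mutation, and the ages were postnatal days 0 (newborn), 16, 19 and 28. The mutated gene, the strain, and the number and sex of the animals behind a library were not stated. The deposited values were read as FPKM, fragment counts scaled to transcript length and library depth.

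In most genes both parental copies are active, whereas in an imprinted gene only the copy from the mother or only the copy from the father is, because DNA methylation laid down in the germ line marks one of them. Many imprinted genes act on growth before birth, and a known feature of a network of them is that their expression drops in many organs as body growth slows after birth. Igf2, the fetal insulin-like growth factor, Peg3, Plagl1, Mest and Dlk1 are expressed from the paternal copy. H19, Meg3 and Cdkn1c are expressed from the maternal copy, as is Grb10 in most tissues outside the brain. The files do not separate the parental copies, so every value below is the sum over both.

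The genes lie in 6 places in the mouse genome (build mm10, annotation GENCODE M21). Igf2 (chr7:142650766-142666816, minus strand) and H19 (chr7:142575529-142578143, minus strand, a long non-coding RNA) are 72.6 kb apart, and Cdkn1c (chr7:143458339-143461050, minus strand) is 791.5 kb from Igf2. Peg3 (chr7:6703892-6730431, minus strand) lies elsewhere on chromosome 7. Mest is at chr6:30723547-30748465 (plus strand), Plagl1 at chr10:13060504-13131694 (plus strand) and Grb10 at chr11:11930508-12038683 (minus strand). Dlk1 (chr12:109452823-109463336, plus strand) and the long non-coding RNA Meg3 (chr12:109541001-109571726, plus strand) are 77.7 kb apart.

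Promoters are shown for 5 protein-coding members on 4 chromosomes, all of which share the drop after birth described below, so that their CG content can be seen. DNA methylation is laid down at CGs, but whether the stretches shown carry the imprinting mark of their gene was not examined. Each runs from 250 bases before to 50 bases after an annotated start, 5′ to 3′ on the gene's strand (RefSeq, GRCm38.p6), with every CG in capitals.
Igf2, chr7:142658755-142659054, minus strand: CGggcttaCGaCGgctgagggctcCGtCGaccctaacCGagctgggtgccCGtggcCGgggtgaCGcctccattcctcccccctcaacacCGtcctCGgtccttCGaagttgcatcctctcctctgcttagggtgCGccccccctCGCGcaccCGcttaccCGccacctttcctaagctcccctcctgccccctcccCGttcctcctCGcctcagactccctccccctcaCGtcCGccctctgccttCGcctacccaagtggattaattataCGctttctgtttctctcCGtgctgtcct
Peg3, chr7:6730370-6730669, minus strand: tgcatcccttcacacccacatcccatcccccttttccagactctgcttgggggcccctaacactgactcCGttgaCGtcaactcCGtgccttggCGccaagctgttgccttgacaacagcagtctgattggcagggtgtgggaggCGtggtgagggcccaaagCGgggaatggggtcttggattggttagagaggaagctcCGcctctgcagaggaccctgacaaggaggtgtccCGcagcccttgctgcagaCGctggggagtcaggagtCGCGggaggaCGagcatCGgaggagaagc
Mest, chr6:30737800-30738099, plus strand: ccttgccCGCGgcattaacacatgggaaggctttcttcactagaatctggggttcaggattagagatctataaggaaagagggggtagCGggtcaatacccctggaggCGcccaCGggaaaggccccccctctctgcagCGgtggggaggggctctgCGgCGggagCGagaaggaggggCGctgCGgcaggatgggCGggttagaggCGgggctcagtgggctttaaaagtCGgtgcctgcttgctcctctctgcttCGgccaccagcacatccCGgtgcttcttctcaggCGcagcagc
Plagl1, chr10:13090582-13090881, plus strand: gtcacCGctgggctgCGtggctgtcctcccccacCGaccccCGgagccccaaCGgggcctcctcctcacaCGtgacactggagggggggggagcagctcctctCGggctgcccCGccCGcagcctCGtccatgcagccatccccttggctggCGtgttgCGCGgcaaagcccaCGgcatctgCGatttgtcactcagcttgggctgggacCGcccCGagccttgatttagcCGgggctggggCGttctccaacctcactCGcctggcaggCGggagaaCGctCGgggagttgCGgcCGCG
Grb10, chr11:12037371-12037670, minus strand: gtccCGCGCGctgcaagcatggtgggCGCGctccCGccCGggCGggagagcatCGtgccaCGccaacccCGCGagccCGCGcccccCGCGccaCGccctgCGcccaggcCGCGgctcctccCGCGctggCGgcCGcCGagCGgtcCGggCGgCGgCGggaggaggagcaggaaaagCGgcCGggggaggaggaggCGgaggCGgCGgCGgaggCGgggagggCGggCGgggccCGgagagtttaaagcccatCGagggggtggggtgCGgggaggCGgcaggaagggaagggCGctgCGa

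RefSeq starts were matched for 7 of the 9 members, giving 14 promoters, and 11 of these hold more CGs than the median of 7 over all 32851 promoters of this length. Both counts include a Mest promoter that overlaps the one shown almost fully and has the same 17 CGs. The Grb10 promoter shown has 45 CGs, a number reached by 1.93% of all promoters. The promoters shown of Plagl1, Igf2, Mest and Peg3 have 26, 24, 17 and 13. For genes with several starts a promoter rich in CGs is shown, and a second Grb10 promoter has 9 and another Mest promoter 8. Igf2 has 4 such promoters, with between 2 and 24 CGs each. The letters GGGGCCCC, which read the same on both strands and are the core of the site described for the zinc fingers of Plagl1, occur in 1 of the 14 member promoters, that of Peg3, and in 1.08% of all promoters. These are descriptions of sequence, as neither methylation nor binding was measured here. H19 also hosts a microRNA, miR-675, whose mature forms are shown with the seed (bases 2 to 8) in capitals.
mmu-miR-675-5p: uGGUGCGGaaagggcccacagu
mmu-miR-675-3p: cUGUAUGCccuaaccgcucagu
The gene of miR-675 was listed at 0 in all 8 libraries, as were Mir483 inside Igf2, Mir335 inside Mest and Mir770 inside Meg3, so none of the values below speak of these microRNAs.

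A few facts of the whole series bear on the values. Depth, estimated from the steps between the lowest values, was 33600000 to 46300000 fragments per library, so that the value of 3 fragments per 1 kb of transcript lies between 0.0648 and 0.0893 FPKM, a floor that covers counting error only. Krt5 and Krt14, the keratins of basal skin cells, were above 399 FPKM in all 8 libraries. Col1a1 and Col3a1, collagens of the dermis, were each listed at exactly 0 in some libraries and above 486 FPKM in the others, so a 0 in these files is not taken as absence. The Y-linked gene Ddx3y was listed at 0 in the hairloss libraries of days 0 and 28 and was between 15.8 and 20.4 FPKM in the other 6. Xist, made by the inactive X chromosome, was 51.3 FPKM in the wildtype library of day 0 and 12.4 FPKM in that of day 19, both of which also held Ddx3y. It was 76.1 and 50.2 FPKM in the hairloss libraries of days 0 and 28 and at most 0.166 FPKM in the other 4. Sex-linked RNA thus differed between libraries within an age and within a genotype, and its part in the results was not tested.

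After birth, 7 of the 9 genes fell together. Over both genotypes Igf2 and H19 had the largest differences and Grb10 and Peg3 the smallest, while within hairloss skin Mest and Cdkn1c kept a smaller share at day 28 than H19. The day 0 libraries were higher than all 6 later libraries for each of the 7. Over the mean of days 16, 19 and 28 against day 0, all 7 passed the test in the lower direction (limma over 18724 genes, genotype as a term, Benjamini-Hochberg adjusted p under 0.05), where 6.72% of all genes tested did. The median difference of the 7 on the log2(FPKM + 1) scale was -3.39, and that of all genes tested was -0.046. Over all genes 1259 were lower and 957 higher, and 2211 and 809 when the libraries were scaled to their protein-coding sums. Dlk1 and Meg3 stayed under 1 FPKM in all 8 libraries, did not enter the test, and are described separately. With 1 library per genotype and age, the test's spread is that of the age differences between the genotypes, on 3 residual degrees of freedom, and it measures the spread between these libraries only. In bulk skin, fewer cells of a type and less RNA per cell cannot be told apart.

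**Figure D1:**
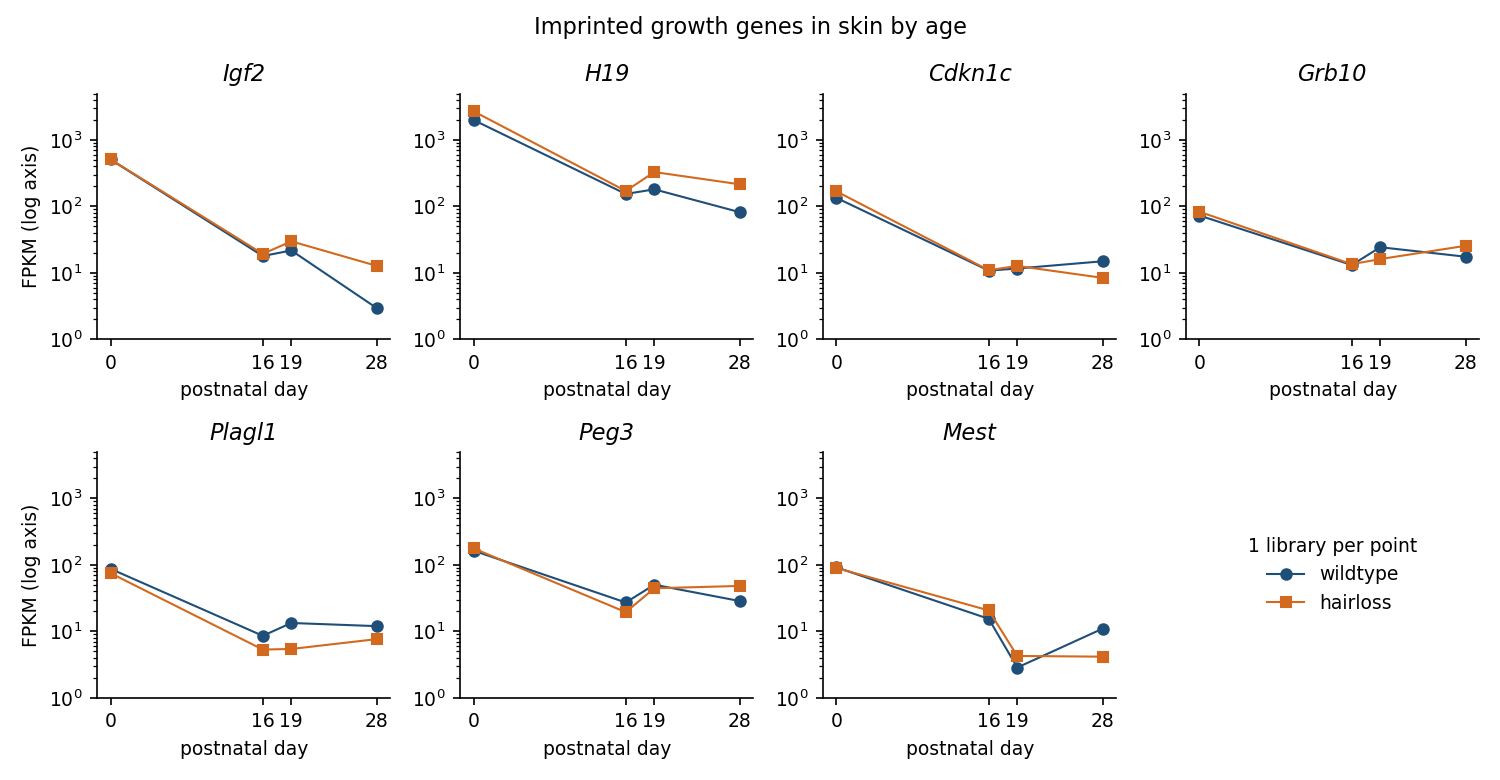
FPKM (log axis) of the 7 measured imprinted growth genes against postnatal day, 1 library per point, wildtype as blue circles and hairloss as orange squares. In every panel both day 0 libraries lie above all 6 later libraries, from H19 at 1998 and 2704 FPKM to Grb10 at 73.0 and 83.1 FPKM.

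The ligand Igf2 was at 509 FPKM in newborn wildtype skin and 511 FPKM in newborn hairloss skin. At days 16, 19 and 28 the wildtype values were 17.9, 21.7 and 2.93 FPKM, and the hairloss values 19.3, 29.8 and 12.7 FPKM. Day 28 was the lowest age in both genotypes. The later ages were lower than day 0 by a log2 difference of -5.03 ± 0.37 (SE; limma, adjusted p = 0.00902). An antisense transcript, Igf2os, overlaps Igf2 and was between 0.00541 and 2.43 FPKM. Whether strand was kept is not stated in the sources, so reads of overlapping genes on opposite strands may be shared.

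H19, the non-coding RNA next to Igf2 that is read from the other parental copy, was the most abundant member in all 8 libraries. It was at 1998 FPKM in newborn wildtype skin and 2704 FPKM in newborn hairloss skin. The wildtype values at days 16, 19 and 28 were 154, 181 and 81.7 FPKM, and the hairloss values 171, 329 and 215 FPKM. The later ages differed from day 0 by -3.73 ± 0.27 (SE; limma, adjusted p = 0.00868). H19 therefore kept a larger share of its day 0 level than Igf2 in every later library. The ratio of H19 to Igf2 FPKM was 3.93 in newborn wildtype skin and 5.29 in newborn hairloss skin. It was 8.58, 8.32 and 27.8 at days 16, 19 and 28 in wildtype and 8.84, 11.0 and 16.9 in hairloss, above the day 0 ratios in all 6 later libraries.

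Cdkn1c encodes p57, an inhibitor of cyclin-dependent kinases that restrains cell division. It was at 134 FPKM in newborn wildtype skin and 168 FPKM in newborn hairloss skin. At days 16, 19 and 28 the wildtype libraries held 10.8, 11.6 and 15.0 FPKM and the hairloss libraries 11.0, 12.7 and 8.40 FPKM. The 6 later values lie close together, within a range of 8.40 to 15.0 FPKM. The difference from day 0 was -3.61 ± 0.23 (SE; limma, adjusted p = 0.0080). Of the other cyclin-dependent kinase inhibitors, 6 were tested and none fell, where 6.72% of all genes tested were lower. With 6 genes, a count without a fall is close to that share. Cdkn2b rose (log2 difference 1.16 ± 0.25, SE; limma, adjusted p = 0.0436), where 5.11% of all genes tested were higher. Cdkn1a, which encodes p21, was at 40.1 and 45.4 FPKM at day 0 and between 47.4 and 126 FPKM later, with no call.

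Grb10 encodes an adaptor protein that binds the insulin and IGF1 receptors and dampens their signal. It was at 73.0 FPKM in newborn wildtype skin and 83.1 FPKM in newborn hairloss skin. The values of days 16, 19 and 28 were 13.1, 24.3 and 17.5 FPKM for wildtype, against 13.5, 16.1 and 25.6 FPKM for hairloss. Its difference of -2.07 ± 0.22 (SE; limma, adjusted p = 0.0161) was the smallest of the 7.

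Plagl1 and Peg3 encode zinc finger proteins of the nucleus. Plagl1 was at 87.4 FPKM in newborn wildtype skin and 75.1 FPKM in newborn hairloss skin, and at 8.58, 13.4 and 12.0 FPKM in the later wildtype libraries against 5.33, 5.43 and 7.66 FPKM in the later hairloss libraries. All 3 later hairloss values lay below all 3 later wildtype values. The later ages differed from day 0 by -3.15 ± 0.20 (SE; limma, adjusted p = 0.00762). Newborn skin held Peg3 at 164 (wildtype) and 177 FPKM (hairloss). The later wildtype libraries had 27.2, 50.3 and 28.6 FPKM of it, and the later hairloss libraries 19.5, 44.5 and 48.3 FPKM. Its difference from day 0 was -2.28 ± 0.25 (SE; limma, adjusted p = 0.0162). The lowest Peg3 value in each genotype was that of day 16.

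Mest encodes a protein of the alpha/beta hydrolase fold that is studied for its part in the growth of fat tissue. It was at 91.8 FPKM in newborn wildtype skin and 89.9 FPKM in newborn hairloss skin. By day 16 the wildtype and hairloss values were 15.4 and 20.6 FPKM, and by day 19 they were 2.86 and 4.27 FPKM. At day 28 the genotypes stood apart, wildtype at 11.0 FPKM and hairloss at 4.16 FPKM. The difference of later ages from day 0 was -3.39 ± 0.35 (SE; limma, adjusted p = 0.0152). Copg2 overlaps Mest on the opposite strand and was between 17.7 and 26.8 FPKM in the 8 libraries, more than Mest in the later ones of days 19 and 28, so the low Mest values are uncertain if reads were counted without regard to strand.

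The calls rest on the libraries of days 0 and 16. Leaving out the wildtype library of day 0 left 1 of 7 members past the threshold (Plagl1, adjusted p = 0.0483), and leaving out the hairloss library of day 0 left 0. Without the wildtype or the hairloss library of day 16, 4 passed, and without any of the other 4 libraries all 7 did. The calls over all genes dropped in the same refits, from 1259 lower genes to 33, 22, 63 and 41. The member differences stayed negative in every one of these fits, with adjusted p of at most 0.161. Leaving out a library leaves 2 residual degrees of freedom.

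By age, 7 members were lower at day 16 than at day 0 (limma; 4.42% of all genes tested were lower and 3.58% higher), 6 at day 19 (1.05% and 1.16%) and 5 at day 28 (0.374% and 0.347%). At day 19 the exception was Peg3 (-1.83 ± 0.30, SE; limma, adjusted p = 0.0501). At day 28 the exceptions were Peg3 (-2.17 ± 0.30, SE; limma, adjusted p = 0.0594) and Grb10 (-1.83 ± 0.27, SE; limma, adjusted p = 0.0646). The largest difference at day 28 was that of Igf2 (-6.12 ± 0.46, SE; limma, adjusted p = 0.0235). These counts are fragile: without either library of day 0 or either library of day 16, none of the 7 passed at day 16, 19 or 28. Without the wildtype or the hairloss library of day 19, 1 and 2 passed at day 19, and without either library of day 28, 3 passed at day 28.

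Within each genotype there is 1 library per age and so no test, and a gene was counted as lower at a difference of at least 2-fold on log2(FPKM + 1) with at least 1 FPKM in either library. All 7 members were lower in each of the 6 comparisons with day 0. By this rule 9.53%, 7.75% and 9.17% of all measured genes were lower in wildtype skin at days 16, 19 and 28, and 11.1%, 9.23% and 8.87% were higher. In hairloss skin 11.4%, 7.14% and 5.05% were lower and 10.5%, 9.33% and 6.07% higher. The members' median differences lay between -3.65 and -2.95, while the medians over all genes lay between -0.08 and -0.05.

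What was left at day 28 differed among the members. Of its newborn level Igf2 kept 0.577% in wildtype, against 2.49% in hairloss. H19 kept 4.09% and 7.95%, Cdkn1c 11.1% and 4.99%, and Plagl1 13.7% and 10.2%. For Mest the shares were 12.0% and 4.63%. Peg3, with 17.4% and 27.2%, and Grb10, with 24.0% and 30.8%, kept the most. The median gene with 1 FPKM or more at day 0 kept 92.0% in wildtype (16111 genes) and 93.1% in hairloss (15757 genes). As little as Igf2 was left of 1.02% and 1.05% of those genes, and as little as Grb10 of 5.83% and 4.57%. Igf2 thus stood lowest and Grb10 highest of the 7 in both genotypes, while H19 and Mest changed places.

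**Figure D2:**
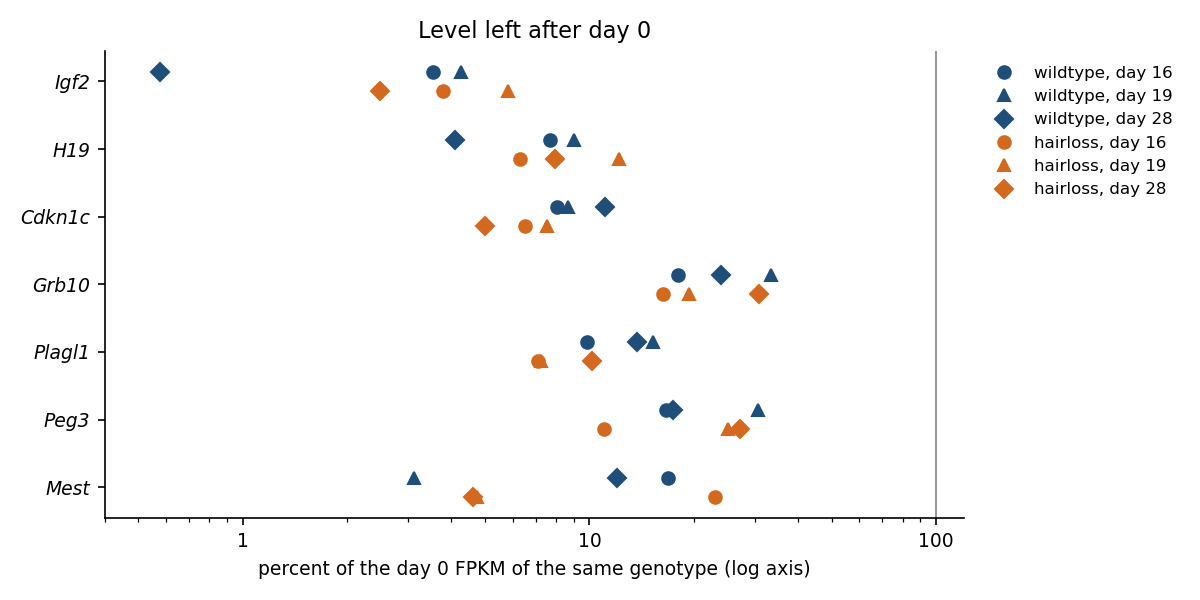
Percent of the day 0 FPKM that was left at day 16 (circles), day 19 (triangles) and day 28 (diamonds) in wildtype (blue) and hairloss (orange) skin, 1 library per point, on a log axis, with a line at 100%. All 42 points lie at or below 33.3%, and the lowest is Igf2 in wildtype skin at day 28, at 0.577%.

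The order of the members by level changed with age. At day 0 it was H19, Igf2, Peg3, Cdkn1c and Mest in both genotypes, followed by Plagl1 and Grb10, whose order differed between the genotypes. At day 28 H19, Peg3 and Grb10 led in both genotypes. Igf2, second at day 0, was the lowest of the 7 in wildtype skin at day 28 (2.93 FPKM) and the fourth in hairloss skin (12.7 FPKM). The summed FPKM of the 9 members was 3057 and 3809 at day 0 and between 168.7 and 441.9 later, and H19 was the largest part of it in all 8 libraries.

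Between day 16 and day 28 no member passed the test (limma; 0.016% of all genes tested were lower and 0.00534% higher). The unadjusted p was under 0.05 for Igf2 (-1.42 ± 0.46, SE; limma, adjusted p = 0.688) and Mest (-1.26 ± 0.43, SE; limma, adjusted p = 0.693). The 95% intervals of the differences, from the same fit, were -2.57 to -0.27 for Igf2 and -2.34 to -0.18 for Mest. For H19 the interval was -1.13 to 0.55 and for Cdkn1c -0.66 to 0.75, so a difference of up to about that size in either direction is not excluded by these data. Peg3, Grb10 and Plagl1 were higher at day 28 by log2 differences of 0.67, 0.63 and 0.45, with no call. All 7 had thus dropped by day 16, and no difference between day 16 and day 28 passed the adjusted test. The steps to and from day 19 were not tested.

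Dlk1 encodes a membrane protein related to Notch ligands that is known for holding back fat cell differentiation, and Meg3 is a maternally expressed non-coding RNA of the same imprinted domain. Neither was measured at a usable level. Dlk1 was at 0.0354 FPKM in newborn wildtype skin and 0.0268 FPKM in newborn hairloss skin, an estimated 2.8 and 2.1 fragments, and was listed at 0 in the 6 later libraries. Newborn skin held Meg3 at 0.0789 (wildtype) and 0.104 FPKM (hairloss), an estimated 8.3 and 10.9 fragments, and the 6 later libraries had at most 0.0165 FPKM, with 3 listed at 0. The Dlk1 values at day 0 lie under the value of 3 fragments (0.0382 and 0.0386 FPKM), and no fold is given for either gene. Without the filter on low values, Meg3 was called lower at later ages (-0.12 ± 0.017, SE; limma, adjusted p = 0.0374) and Dlk1 was not (adjusted p = 0.0859). In that setting 8 of 9 members passed, and 1119 of all 34373 genes tested were lower and 477 higher. The Meg3 call rests on the few fragments estimated above and is not added to the calls of the measured members. Whether these values are failed estimates was not tested.

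Other transcripts of that domain were measured on the same strand. Rian, a non-coding RNA that starts 32.2 kb beyond Meg3 and is also maternally expressed, was at 6.16 and 8.07 FPKM at day 0. Its later wildtype values were 0.061, 0.139 and 0.569 FPKM, and its later hairloss values 0.578, 0.667 and 1.16 FPKM. Mirg, a microRNA host 158.0 kb beyond Meg3, was at 52.6 and 51.9 FPKM at day 0. The later wildtype libraries had 6.29, 12.0 and 8.66 FPKM of Mirg, and the later hairloss libraries 2.30, 4.10 and 10.8 FPKM. Both fell, Rian by a log2 difference of -2.44 ± 0.14 (SE; limma, adjusted p = 0.00636) and Mirg by -2.82 ± 0.37 (SE; limma, adjusted p = 0.0221). The maternally read part of the domain downstream of Meg3 was therefore detected, at levels far above those listed for Meg3 itself.

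Peg3 shares its domain with Usp29, which starts 0.1 kb away on the opposite strand and is also paternally expressed, and with Zim1, 7.4 kb away on the same strand and maternally expressed. Usp29 was at 5.82 and 5.76 FPKM at day 0 and between 0.208 and 0.852 FPKM later. Zim1 was at 43.6 and 50.7 FPKM at day 0 and between 6.57 and 18.5 FPKM later. Both fell, with log2 differences of -2.14 ± 0.18 and -1.94 ± 0.29 (SE; limma, adjusted p = 0.0114 and 0.0254). The paternally and the maternally read neighbours of Peg3 were lower in all 6 later libraries, as Peg3 was.

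**Figure D3:**
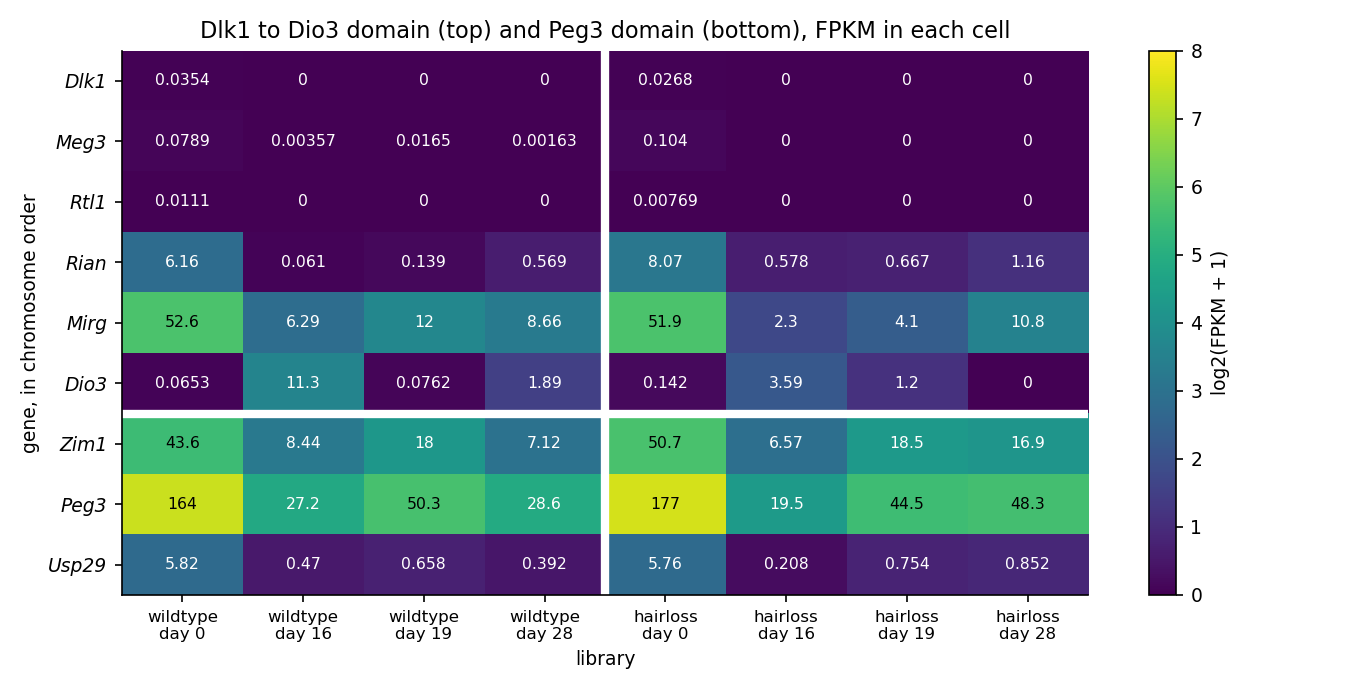
FPKM printed in each cell and log2(FPKM + 1) as colour for genes of the domain from Dlk1 to Dio3 (top) and of the Peg3 domain (bottom), in chromosome order, by library. Dlk1, Meg3 and Rtl1 stay near or at 0 in all libraries, while Rian, Mirg, Zim1, Peg3 and Usp29 are highest in both day 0 libraries.

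Among the other imprinted genes the drop was shared by some and not by others. Of 29 paternally expressed genes, 21 were tested, 10 fell and none rose, with a median difference of -0.85. Those that fell were Zdbf2 (-2.39), Usp29, Peg10 (-2.12), Slc38a4 (-2.03), Nespas (-1.95), Ndn (-1.32), Airn (-1.14), Peg12 (-1.08), Nap1l5 (-0.85) and Inpp5f (-0.52), all as log2 differences. Peg10 derives from a retrotransposon and is needed for the placenta, and Slc38a4 is an amino acid transporter. Of 39 genes listed as maternally expressed, 33 were tested, 7 fell and 2 rose, with a median of -0.02. Which copy was read in skin was not measured for either list, so the medians do not compare parental copies. The 7 were Mirg, Rian, Zim1, Ppp1r9a (-1.29), Gnas (-1.19), Klf14 (-0.79) and Igf2r (-0.79). Pon2 (0.83) and Dhcr7 (1.37), an enzyme of cholesterol synthesis, rose. For comparison, 6.72% of all genes tested were lower and 5.11% higher, with a median of -0.046. Zdbf2 and Usp29 were under 1 FPKM in all later libraries, and Klf14 was at only 1.09 FPKM in newborn hairloss skin. Genes that passed the filter of 1 FPKM only through day 0 are more likely to be lower, so the counts partly reflect the filter. The differences of the 7 growth genes ran from -5.03 to -2.07, and of the 54 other imprinted genes tested Mirg, Rian, Zdbf2, Usp29 and Peg10 lay in that range with a call. The log2(FPKM + 1) scale limits the fall of low genes, so Peg12, at 1.95 and 2.25 FPKM at day 0, could not reach it. Outside the range, Nespas kept 22.4% (wildtype) and 14.7% (hairloss) at day 28 and Slc38a4 17.9% and 29.6%. Both kept less than Grb10, at 24.0% and 30.8%.

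Members of the IGF pathway other than Igf2 did not share a common direction. Of 20 tested, 4 fell and 1 rose, with a median of 0.04. Pappa2, a protease that frees IGFs from their binding proteins, fell from 12.6 and 14.3 FPKM at day 0 to between 2.11 and 4.10 FPKM (log2 difference -1.87 ± 0.17, SE; limma, adjusted p = 0.0125). The receptor Igf1r (-0.79), the receptor Igf2r, which clears Igf2 from the cell surface, and the adaptor Irs2 (-0.73) fell. Igfals, which stabilises IGFs in the circulation, rose (0.76). Igf1, the growth factor of postnatal life, was at 29.1 and 37.8 FPKM at day 0 and between 11.2 and 27.1 FPKM later (limma, adjusted p = 0.138). Per transcript length, Igf2 stood above Igf1 in both day 0 libraries. The order was mixed at day 16 (17.9 against 11.2 FPKM in wildtype, 19.3 against 19.3 FPKM in hairloss) and day 19 (21.7 against 24.8 FPKM, and 29.8 against 13.4 FPKM). At day 28 Igf2 was below Igf1, in wildtype (2.93 against 18.5 FPKM) and in hairloss skin (12.7 against 27.1 FPKM).

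Fetal RNA-binding and chromatin proteins that act on growth held 6 genes that fell among 18 tested, and none that rose, with a median of -0.55. They include the 3 members of the family that binds Igf2 messenger RNA: Igf2bp1 (-2.28 ± 0.18, SE; limma, adjusted p = 0.0108), Igf2bp2 (-2.25 ± 0.25, SE; limma, adjusted p = 0.0171) and Igf2bp3 (-1.62 ± 0.21, SE; limma, adjusted p = 0.0217). Igf2bp3 went from 16.7 and 18.5 FPKM in newborn skin through 11.9 and 8.34 FPKM at day 16 down to 2.37 and 1.59 FPKM by day 28. Hmga2 (-1.49), an architectural chromatin protein of fetal tissue, Zfp57 (-1.19), which protects imprinting methylation, and Ezh2 (-0.66) also fell. Igf2bp1 and Hmga2 were under 1 FPKM in all later libraries and passed the filter of 1 FPKM only through day 0.

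**Figure D4:**
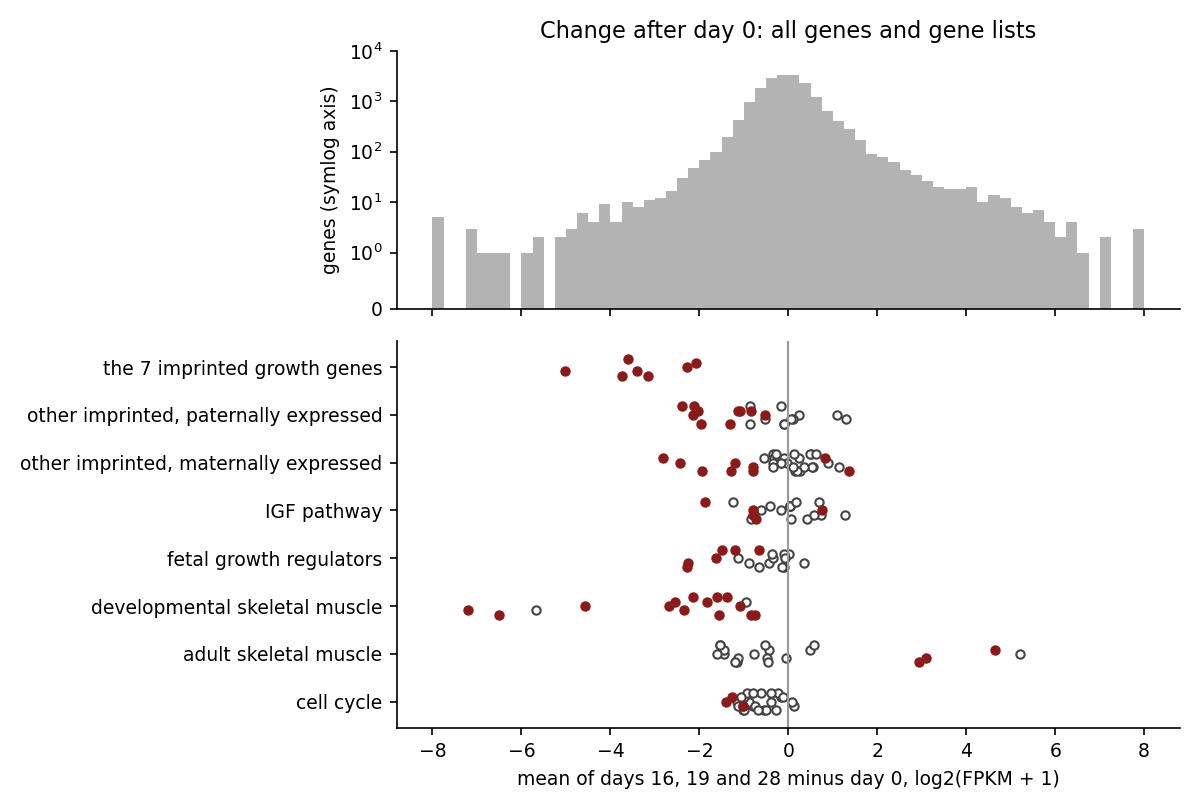
Mean of days 16, 19 and 28 minus day 0 on log2(FPKM + 1), for all 18724 genes tested (top, number of genes per bin of 0.25 on a symlog axis, values beyond 8 in the end bins) and for the members and 7 gene lists (bottom, 1 point per gene, filled where limma's adjusted p is under 0.05). The 7 imprinted growth genes lie between -5.03 and -2.07 and are all filled, and the developmental muscle genes reach -7.20.

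Markers of other tissue moved with the members. Of 16 developmental skeletal muscle genes tested (18 in the list), 14 fell and none rose, with a median of -1.99. Among them Myh3, Mymk and Mymx were under 1 FPKM in all later libraries and passed the filter of 1 FPKM only through day 0. Myh8, the perinatal myosin heavy chain, was at 684 and 870 FPKM at day 0 and between 2.01 and 9.35 FPKM later, and Myh3, the embryonic one, was at 106 and 131 FPKM at day 0 and at most 0.658 FPKM later. The list's summed FPKM was 1266 and 1519 at day 0 and between 24.39 and 86.4 later, and Pax7, the marker of muscle stem cells, was at most 0.284 FPKM in all libraries. Adult skeletal muscle genes summed to 8856 and 10820 FPKM at day 0 and between 1193 and 10910 FPKM later. Of 20 tested, none fell and 3 rose over the later ages together (Pvalb, Mb and Myh1), with a median of -0.51. At day 16 alone the median was -1.83, with Acta1 and Eno3 called lower and Myh1 higher (limma). That age had the lowest adult muscle sum of each genotype, 2530 (wildtype) and 1193 (hairloss). At days 19 and 28 the medians were -0.04 and -0.43, with Myh1 called higher and none lower. Muscle RNA was thus present at every age and changed its makeup, and its part in the drop of the imprinted genes was not tested.

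Among dermal fibroblast genes 4 of 20 fell and none rose, with a median of -0.67: Twist2 (-1.99), Col6a3 (-1.73), Vim (-1.45) and Pdgfra (-0.94). Their summed FPKM was 10270 and 7224 at day 0 and between 4928 and 10060 later, a sum that includes the collagen values listed at 0. Of 27 cell cycle genes, 3 fell and none rose, with a median of -0.80 (Foxm1, Cenpf and Ect2). The cell cycle sum was 540.1 and 497.4 FPKM in newborn skin. It was lower at day 16 (216.4 and 355.3 FPKM) and day 19 (137.7 and 276.8 FPKM), as the imprinted growth genes were, and 602.5 and 600.4 FPKM at day 28. Of 16 keratinocyte genes 5 were called higher and none lower, with a median of 0.97 (Ivl, Dsg3, Dsc3, Dsp and Perp). Krt1 (-2.37), Flg (-2.18), Krt10 (-1.19) and Lor (-0.58) were lower at later ages with no call. The keratinocyte sum in wildtype skin was 8325 FPKM at day 0 and 6210, 5670 and 4433 FPKM at days 16, 19 and 28. In hairloss skin it was 11310 FPKM at day 0 and 15420, 16440 and 13310 FPKM later. Endothelial genes had 1 of 12 lower (Cldn5), adipocyte genes 1 lower (Lpl) and 1 higher (Lep) of 16, and brown adipocyte genes 1 of 8 higher (Elovl3). These shares are near those over all genes (6.72% lower and 5.11% higher) or rest on a single gene. Ucp1, which defines brown fat, had no call (log2 difference -4.33 ± 1.07, SE; limma, adjusted p = 0.0684). It was at 100.7 FPKM in newborn wildtype and 3.25 FPKM in newborn hairloss skin and at most 0.103 FPKM in the later libraries. None of 5 sex-linked genes had a call. Erythroid genes also had no call among 6 tested, but their median was -1.72 and their sum was 2170 and 1250 FPKM in newborn skin against 276 to 995.3 FPKM later. The part of these cell types in the result was not tested.

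**Figure D5:**
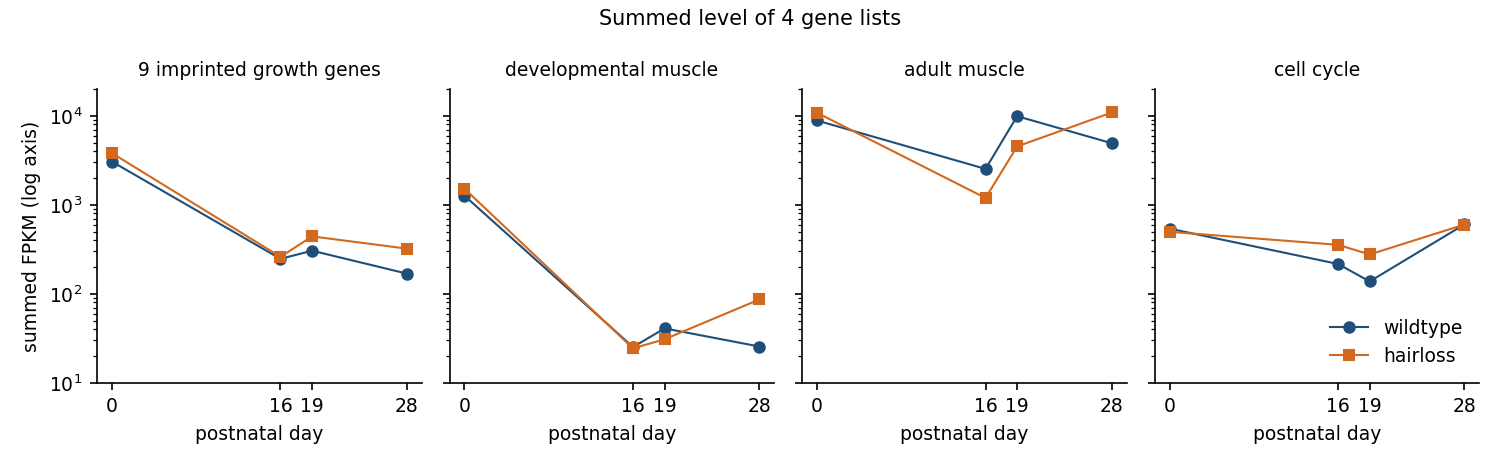
Summed FPKM (log axis) of the 9 imprinted growth genes, developmental muscle, adult muscle and cell cycle genes against postnatal day, wildtype as blue circles and hairloss as orange squares, 1 library per point. The imprinted and the developmental muscle sums are highest in both day 0 libraries, whereas the adult muscle and cell cycle sums at day 28 reach or approach their day 0 values in at least 1 genotype.

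The genes whose profile over the 8 libraries was most like that of the members were named by Pearson's r on log2(FPKM + 1) among 10974 protein-coding genes that reached 5 FPKM in a library, as a description only, since all points share the contrast of day 0 with the later ages. For the mean standardised profile of the 9 members these were Serpinb3c, Igsf1, Zdbf2 and Myh3 (r = 0.996 each) and Arhgap36 (r = 0.995). The same 5 genes came first for the mean of the 7 measured members without Dlk1 and Meg3, a choice made after seeing the data. Zdbf2 is itself imprinted, and Myh3 is a muscle gene. Igf2 was most like Ccnd3, which encodes cyclin D3 (r = 0.997), followed by Ddc, Prdm11, Zbed6 and Maml1, all at 0.984 or above. H19 was most like Ddc (r = 0.991), Prdm11, Sln, Map2k5 and Dcaf8. Peg3 was most like Rnf169 (r = 0.995), Grb10 like Pkig (r = 0.994), Cdkn1c like Arhgap36 (r = 0.991), Plagl1 like Kat14 (r = 0.987) and Mest like Ankrd50 (r = 0.982).

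Between the genotypes no member passed the test over ages (limma; 0.0107% of all genes tested were lower and 0.0267% higher in hairloss). The unadjusted p was under 0.05 for H19, higher in hairloss (0.71 ± 0.24, SE; limma, adjusted p = 0.347; higher at 4 of 4 ages), and for Plagl1, lower in hairloss (-0.64 ± 0.17, SE; limma, adjusted p = 0.323; lower at 4 of 4 ages). The 95% intervals were 0.11 to 1.30 for H19 and -1.07 to -0.21 for Plagl1. For Peg3 and Grb10 the intervals were -0.48 to 0.59 and -0.43 to 0.53. The size of the fall after day 0, compared between the genotypes with an interaction term, was not called different for any member (limma; adjusted p = 0.9999 for all 7, unadjusted p of at least 0.22; 0.166% of all genes tested lower and 0.107% higher). For H19 and Igf2 the 95% intervals of that difference were -1.51 to 2.23 and -2.72 to 4.26, which leaves room for an unequal fall in either direction. The intervals of Cdkn1c and Plagl1 were narrower, at -1.48 to 0.41 and -1.58 to 0.45. In this interaction fit the later libraries of a genotype form a group, so its spread is that between the later ages. The lone day 0 library of each genotype is assumed to vary like them.

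At single ages, by the same 2-fold size rule and with no test, no member differed between the genotypes at day 0 (1.58% of all measured genes were lower and 1.49% higher in hairloss) or at day 16 (7.39% and 5.34%). At day 0 the ratios of hairloss to wildtype FPKM ran from 0.86 for Plagl1 to 1.35 for H19. At day 19 Plagl1 was lower in hairloss (5.43 against 13.4 FPKM), as were 5.76% of all genes, with 6.53% higher. At day 28 H19 (215 against 81.7 FPKM) and Igf2 (12.7 against 2.93 FPKM) were higher in hairloss, as were 5.6% of all genes, and Mest (4.16 against 11.0 FPKM) was lower, as were 6.42%. With a pseudocount of 5 the differences of Plagl1 at day 19 and Mest at day 28 no longer met the rule (-0.82 and -0.81). Beside these values, the hairloss library of day 28 had the higher sum of developmental muscle genes (86.4 against 25.58 FPKM). Most of that gap was a single gene, Actc1, at 46.8 against 3.13 FPKM. The hairloss library also had the higher sum of adult muscle genes (10910 against 4909 FPKM). It was listed at 0 for Ddx3y where the wildtype one was at 16.5 FPKM. The part of muscle RNA and of sex in the day 28 values was not tested.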

How the data were processed

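Total RNA of mouse skin was sequenced in 8 libraries, made with TruSeq kits from RNA isolated on RNeasy columns, per the labels' protocols. Per the submitters' processing notes, reads were handled with cutadapt and Cuffdiff on build mm10, with no versions listed. For the aligner, the annotation and any scaling between libraries the sources used here give nothing. The authors deposited 1 value per Ensembl gene and library with no unit named. The deposited values were taken as FPKM, an inference from their not being whole, from totals that differ between libraries (1080977.8 to 2501650.7) and from Cuffdiff being named. Short RNA genes hold 57.7% to 77.7% of each total. With no counts deposited, tests for counts were not used.

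The files gave 21795 symbols, GENCODE M21 gave 33471, and 152 genes had none. Depth was estimated from the smallest steps of the values. Values were tested as log2(FPKM + 1), which understates the change of low genes, with limma 3.58.1 (R 4.3.3, statmod 1.5.0; eBayes with trend and robust) over the 18724 genes reaching 1 FPKM in any library, with genotype and age as terms, two-sided, adjusted by Benjamini-Hochberg over all genes, at a threshold of 0.05. The compared fall was an interaction of genotype with later age (4 residual degrees of freedom). The comparisons share the day 0 libraries. The script was tested on simulated data. Other steps used Python 3.11.15, numpy 2.4.6, pandas 2.3.3 and matplotlib 3.10.9. Alternatives were pseudocounts of 0.1 and 5, no filter or a minimum of 5 FPKM, scaling to the protein-coding sum without keratins and keratin-associated proteins, no genotype term, 2 age levels, and leaving out each library.

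The members and the 16 other gene lists were chosen with earlier results of these data known. From each list up to 4 genes were named, those called with the largest change, and up to 10 in each direction for imprinted genes. The genes most alike were the top 5 by Pearson's r. Genes named beyond this (the muscle stem cell marker Pax7, Actc1, further called list members, Cdkn1a, Igf1 and neighbours of members) were chosen after their values were seen. The result of 1 marker list is not reported here.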

Additional observations from a re-analysis of the deposited data

Results flagged for a closer look

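Between day 16 and day 28 a pair of members moved in opposite directions in the 2 genotypes, which was not tested because each direction rests on 1 library per age. H19 was lower at day 28 than at day 16 in wildtype skin (154 and 81.7 FPKM, a log2 difference of -0.91) and higher in hairloss skin (171 and 215 FPKM, 0.33), so that the differences lie 1.24 apart. Cdkn1c was higher at day 28 in wildtype skin (10.8 and 15.0 FPKM, 0.43) and lower in hairloss skin (11.0 and 8.40 FPKM, -0.35), -0.78 apart. The pair was picked for its opposite signs and not for size. Igf2 (1.7 apart) and Mest (-1.62 apart) fell in both genotypes, with wider gaps between them.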

How the results depend on the processing

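In the 4 comparisons with day 0 no member's difference reversed: of 399 single values for the 7 tested members under other settings, 274 kept their side of the threshold, 115 were no longer past it and 10 newly passed. Leaving out 1 library at a time, the number of members called ranged from 0 to 7 for later ages against day 0, 0 to 7 for day 16, 0 to 6 for day 19 and 0 to 5 for day 28, all 7 differences staying negative; these fits have fewer samples. Under the other alternatives the 7 calls for later ages held. With a pseudocount of 5, 0 in place of 1 member met the size rule between genotypes at day 19 (Plagl1 lost) and 2 in place of 3 at day 28 (Mest lost). Over all genes, later against day 0 gave 754 to 2211 lower and 477 to 1105 higher under the other alternatives (1259 and 957 as reported) and 22 to 1004 and 3 to 879 without 1 library. Scaling to protein-coding sums shifted the median of all genes to -0.175 and gave 2211 lower and 809 higher. For day 16, 19 and 28 against day 0, lower calls ran from 6 to 1720, 8 to 301 and 7 to 120 over all alternatives (827, 196 and 70 as reported). The interaction's calls ran from 9 to 218 lower and 3 to 273 higher (31 and 20 as reported), none of them a member; it was not fitted without a day 0 library, which leaves a genotype without one. With 1 library per genotype and age, no paired analysis was possible beyond genotype as a term. Without that term the 7 calls for later ages held. With no replicate within a group, small genotype differences are beyond reach, and Dlk1 lies under the value of 3 fragments.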

Other observations

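A few other imprinted genes, named after their values were seen, were higher at day 16 than at day 0 in both genotypes. Nnat, which encodes neuronatin, had wildtype values of 7.47, 47.4, 61.6 and 4.74 FPKM at days 0, 16, 19 and 28. Its hairloss values at these ages were 5.27, 19.6, 13.6 and 1.78 FPKM. Nnat was called higher at day 16 than at day 0 (limma over all genes) and was not called over the later ages together (limma, adjusted p = 0.0753). Dio3, an enzyme that inactivates thyroid hormone and lies at the far end of the domain of Dlk1 and Meg3, had wildtype values of 0.0653, 11.3, 0.0762 and 1.89 FPKM in the same order of ages. Its hairloss values were 0.142, 3.59 and 1.196 FPKM up to day 19, and it was listed at 0 in the hairloss library of day 28. Phlda2, a maternally expressed neighbour of Cdkn1c known for limiting placental growth, had wildtype values of 0.565, 5.91, 0.736 and 3.004 FPKM and hairloss values of 0.657, 4.51, 3.23 and 0.750 FPKM. For Phlda2 the genotypes thus changed order at every step from 1 age to the next, with 1 library per value.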
